A study of Capra hircus with 20 samples.

Results

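Troponin is the calcium switch of striated muscle, and its 8 genes are described here across 4 groups of cultured goat cells. The members are the mRNA transcripts whose official symbol is TNNC1, TNNC2, TNNI1, TNNI2, TNNI3, TNNT1, TNNT2 or TNNT3. They came to 14 transcripts of 8 genes, among 43766 mRNA transcripts of 20593 genes. The study compared preadipocytes with induced adipocytes from muscle and from subcutaneous fat, to describe RNA changes in goat fat cell differentiation. Cells came from 5 male Jianzhou Daer goats aged 7 days, were grown to passage 3 in DMEM/F12 with 10% fetal bovine serum, and were sequenced as strand-specific libraries. IMPA are intramuscular preadipocytes from the longissimus dorsi on day 0 and IMA the same kind of cells after 3 days with oleic acid. SPA and SA are the subcutaneous cells on day 0 and after 3 days with oleic acid. Each group held 5 libraries, and the replicate numbers are not tied to goats, so libraries were treated as independent.

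In a striated muscle cell, troponin sits with tropomyosin on the actin thin filament. Troponin C binds calcium, troponin I inhibits the interaction of actin and myosin, and troponin T holds the complex on tropomyosin. Fast skeletal, slow skeletal and cardiac muscle use different genes for troponin I and for troponin T. Slow skeletal and cardiac muscle share a troponin C gene, and fast skeletal muscle uses another. Embryonic skeletal muscle also expresses the cardiac troponin T gene, and fat cells are not known to depend on any of these genes.

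Values are FPKM, fragments scaled by transcript length and by the mapped reads of a library, summed over the transcripts of a gene. The files hold no counts, so the number of reads behind a value is not given, and a gene listed at 0 may have been below the depth of its library. The study lists the mapped reads of each library, and every IMPA library had more of them than every SA library. Summed over the mRNA table, a library held from 373889 to 413880 FPKM. The share of reads that mapped to the genome was higher in IMPA than in the other groups by the study's own figures, and so was the GC content of the reads. Neither can be told apart from that group. SPA 1 and SA 5 lost fewer reads to filtering than the other subcutaneous libraries, and SPA 1 stood apart in several troponin genes, so subcutaneous results are given with and without it where it matters.

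The labelled cell types were checked against marker genes. Of 11 adipocyte genes, 10 were found by symbol, FABP4 being the one that was not and that is not analysed here, and they summed to between 11.0 and 14.4 FPKM in every one of the 20 libraries. CEBPA, an adipogenic transcription factor, had the highest mean of these genes in IMPA (9.23 FPKM), IMA (5.42) and SPA (5.05), and CIDEC, a lipid droplet protein, had it in SA (4.35, with CEBPA at 3.91). Mean levels of PPARG, the master regulator of fat cell formation, were 0.475 in IMPA, 0.364 in IMA, 0.624 in SPA and 1.03 FPKM in SA. ADIPOQ and PLIN1, which mark mature fat cells, had means between 0.128 and 0.419 FPKM in the 4 groups, and LEP was listed at 0 in all 5 SA libraries. PPARG, ADIPOQ, PLIN1 and LEP thus had means near or below 1 FPKM on both days and in both depots. CD36, a fatty acid transporter, was higher after induction, with means of 0.252 in IMPA, 4.91 in IMA, 0.0679 in SPA and 0.934 FPKM in SA. It reached the mean required for a test only with the IMA libraries. The study reported lipid droplets by Oil Red O staining and lower Pref-1 RNA after induction in both depots. Here DLK1, the gene of Pref-1, had means of 0.0114 in IMPA, 0.0316 in IMA, 0.145 in SPA and 0.157 FPKM in SA. It was thus near 0 throughout, its mean was not lower after induction in either depot, and it did not reach the mean required for a test. CIDEC differed by depot, with means of 0.333 in IMPA, 0.318 in IMA and 4.65 FPKM in SPA, and did not pass the test between the days in either depot. LPL, a lipase of fat and muscle, had means of 1.02 in IMPA, 0.941 in IMA, 0.549 in SPA and 1.34 FPKM in SA, with every SA library above every SPA library. DGAT2, an enzyme of triglyceride synthesis, had means of 0.202, 0.208, 0.267 and 0.588 FPKM, with overlap between SPA and SA, and neither gene reached the mean required for a test. The stromal genes, led by DCN, a matrix proteoglycan of connective tissue cells, summed to 1125 ± 138 FPKM (SD, n = 5) in IMPA, 972 ± 42.0 in IMA, 6482 ± 115 in SPA and 4928 ± 112 in SA. The regulators of muscle formation summed to 723, 708, 830.3, 729 and 839.9 FPKM in IMPA 1 to 5 and to 891, 882, 954, 915 and 969.9 in IMA 1 to 5. Their sums were 15.1, 13.0, 13.8, 13.7 and 13.8 FPKM in SPA 1 to 5 and 15.1, 14.8, 14.2, 15.6 and 15.8 in SA 1 to 5. All 10 intramuscular libraries thus held RNA of a skeletal muscle programme. Most of the subcutaneous sums came from MEF2A, with means of 10.3 FPKM in SPA and 11.7 in SA, and MEF2D, with 2.06 and 1.75. Those sums are therefore not read as a lower level of that programme. MYOG, a transcription factor of muscle differentiation, was the most abundant of these regulators in the intramuscular groups. Its mean was 649 FPKM in IMPA and 736 in IMA, while it was listed at 0 in 4 of 5 libraries in SPA and in SA. The group names below are therefore labels of source and stage. Fewer cells of a type and less RNA per cell cannot be told apart in these bulk libraries, and the part that muscle cells have in the results was not tested.

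The 8 genes together summed to 1230.1, 1197, 1417, 1322 and 1380.0 FPKM in IMPA 1 to 5. In IMA 1 to 5 the sums were 5336, 5230.3, 5042, 5403 and 5431 FPKM. Subcutaneous libraries summed to 19.0, 9.60, 12.0, 10.3 and 11.4 FPKM in SPA 1 to 5 and to 12.4, 11.9, 12.2, 11.8 and 10.3 in SA 1 to 5. The family thus took 0.338% ± 0.0251 of the mRNA FPKM of a library in IMPA and 1.33% ± 0.0381 in IMA (SD, n = 5), with no overlap between these groups. In SPA the share was 0.00327% ± 0.000948 and in SA 0.00293% ± 0.000189.

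FPKM is scaled by transcript length, so the levels of the 8 genes can be set in order. In IMPA the order by mean FPKM was TNNC1, TNNT2, TNNT1, TNNT3, TNNC2, TNNI1, TNNI2 and TNNI3. Among neighbours in that order, the library ranges overlapped for TNNT2 and TNNT1, for TNNT1 and TNNT3, and for TNNC2 and TNNI1. TNNT2 was above TNNT1 in 3 of 5 IMPA libraries, so these genes stood level, while TNNT1 was above TNNT3 in 5 of 5. In IMA the order was TNNC1, TNNT3, TNNT1, TNNT2, TNNC2, TNNI1, TNNI2 and TNNI3, and only the ranges of TNNI1 and TNNI2 overlapped among neighbours. TNNT3, the fast skeletal troponin T, moved from behind TNNT2 and TNNT1 to ahead of them. In SPA and in SA, TNNT3 led and its range was separate from that of every other member. TNNI3, TNNI1 and TNNI2 followed in both subcutaneous groups, and the other 4 genes had means under 1 FPKM.

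**Figure D1:**
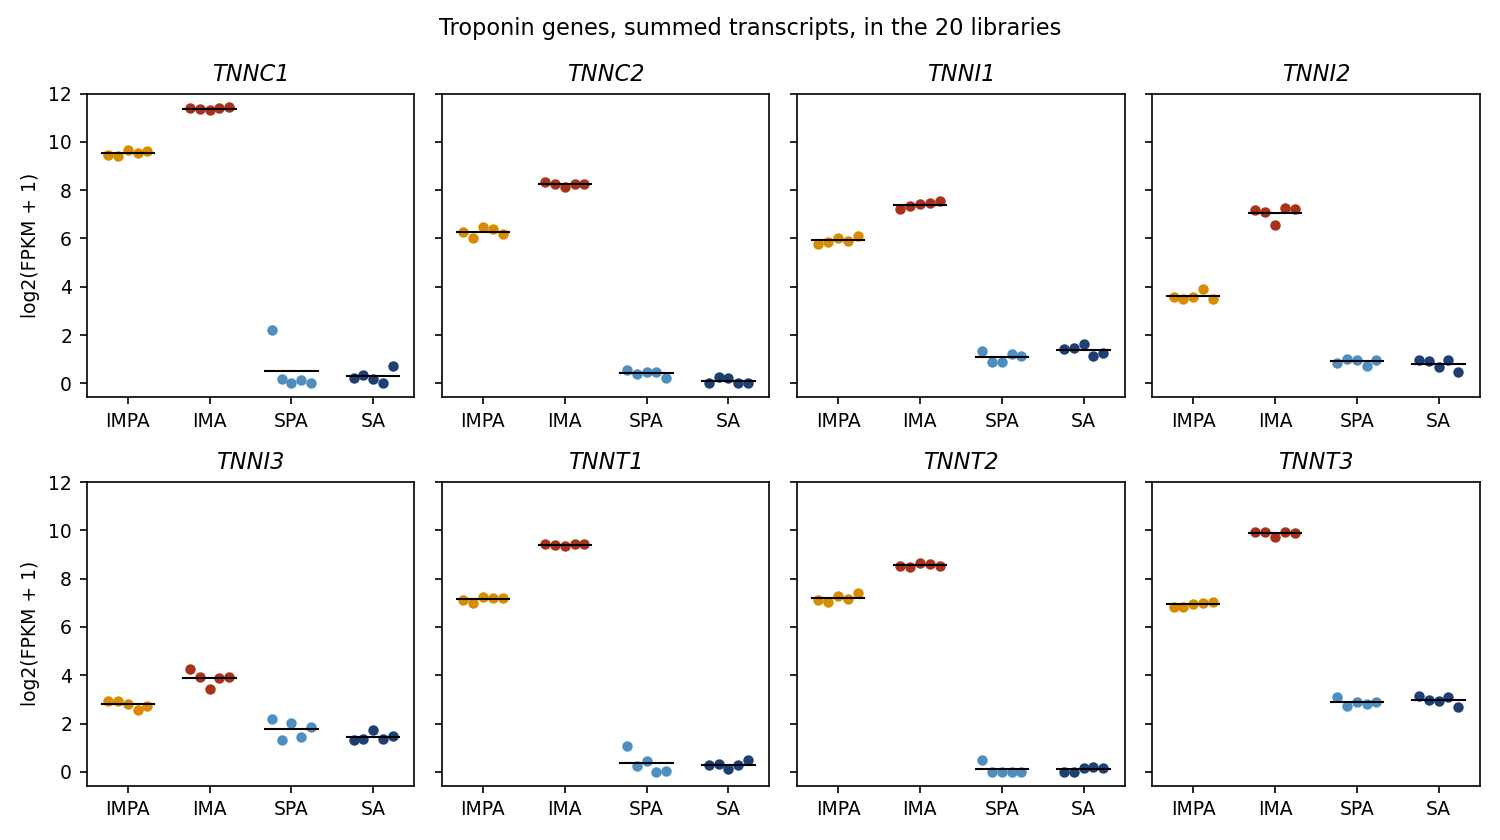
Each panel shows log2(FPKM + 1) of a troponin gene in the 20 libraries, with a point for each library and a bar at the mean of the 5 libraries of a group. All 8 genes are higher in IMA than in IMPA, and TNNT3 is the member with the highest subcutaneous levels, from 5.51 to 7.90 FPKM.

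Troponin C, the calcium sensor, had the most abundant member in the intramuscular groups. TNNC1, shared by slow skeletal and cardiac muscle, stood at 696, 688, 821, 747 and 778 FPKM in IMPA 1 to 5 and at 2675, 2619, 2582, 2679 and 2763 in IMA 1 to 5. Each IMA library was more than 3 times as high as any IMPA library, the ratio of any IMA to any IMPA library lying between 3.14 and 4.02. The ratio of means was 3.57, and limma's test on log2(FPKM + 1) gave a log2 fold change of 1.84 (SE 0.0495, adjusted p = 8.04e-11). TNNC2, the fast skeletal troponin C, was 75.7, 63.3, 86.8, 82.6 and 72.8 FPKM in IMPA 1 to 5 and 320.1, 302, 281, 304 and 308 in IMA 1 to 5. The groups were again apart, and the ratio of means was 3.98. The log2 fold change of TNNC2 was 1.98 (SE 0.0730, adjusted p = 1.07e-09).

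Troponin I, the inhibitory subunit, had the lowest summed level of the 3 subunits in the intramuscular groups, while troponin C had the lowest in SPA and SA. TNNI1, the slow skeletal form, stood at 52.9, 57.2, 64.8, 58.1 and 68.1 FPKM in IMPA 1 to 5 and at 148, 162, 171, 177 and 184 in IMA 1 to 5. TNNI2, the fast skeletal form, was 10.9, 10.2, 11.0, 13.9 and 10.4 FPKM in IMPA 1 to 5 and 143, 137, 93.3, 152 and 147 in IMA 1 to 5. Both genes were higher in every IMA than in every IMPA library, with IMA 3 below the other IMA libraries in TNNI2 and IMPA 4 above the other IMPA libraries. The log2 fold change was 3.45 for TNNI2 (SE 0.124, adjusted p = 9.26e-10), the largest of the 8 members, with a ratio of means of 11.9. For TNNI1 it was 1.47 (SE 0.0740, adjusted p = 1.80e-08), with a ratio of means of 2.80. TNNI3, the cardiac form, was far lower, at 6.65, 6.61, 6.0, 4.99 and 5.63 FPKM in IMPA 1 to 5 and 18.3, 14.2, 9.80, 13.8 and 14.4 in IMA 1 to 5. Its groups did not overlap either, and IMA 3 was again the lowest IMA library. The log2 fold change of TNNI3 was 1.10 (SE 0.127, adjusted p = 1.86e-05), the smallest of the 8.

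Troponin T, which binds tropomyosin, had TNNT1 and TNNT2 at like levels in IMPA, TNNT3 below both in each IMPA library, and the 3 genes apart in IMA. TNNT3, the fast skeletal form, stood at 113, 114, 123, 127 and 132 FPKM in IMPA 1 to 5 and at 967, 976, 856, 988 and 946 in IMA 1 to 5. TNNT1, the slow skeletal form, was 138, 128, 151, 147 and 146 FPKM in IMPA 1 to 5 and 694, 663, 652, 701 and 701 in IMA 1 to 5. TNNT2, the cardiac form, was 138, 129.8, 153, 142 and 167 FPKM in IMPA 1 to 5 and 370.4, 358, 396, 387 and 368 in IMA 1 to 5. For each of the 3 genes every IMA library was above every IMPA library, and in IMA the genes no longer overlapped. Ratios of means were 7.77 for TNNT3, 4.81 for TNNT1 and 2.58 for TNNT2. The log2 fold change was 2.95 for TNNT3 (SE 0.0536, adjusted p = 3.56e-12). It was 2.26 for TNNT1 (SE 0.0467, adjusted p = 8.95e-12) and 1.36 for TNNT2 (SE 0.0613, adjusted p = 6.17e-09).

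In all, 8 of 8 troponin genes were higher in IMA than in IMPA at an adjusted p under 0.05, where 19.9% of the 11433 genes tested were higher and 40.2% lower. The groups did not overlap for any of the 8, and 14.3% of all genes were higher in IMA without overlap. The median log2 fold change of the 8 was 1.91, and that of all genes tested was -0.09. These p values measure the spread between the 10 libraries, which the labels do not tie to goats.

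The same induction in subcutaneous cells was compared between SA and SPA. TNNC2 was 0.457, 0.308, 0.386, 0.374 and 0.159 FPKM in SPA 1 to 5, and in SA it was listed at 0 in libraries 1, 4 and 5 and stood at 0.184 and 0.182 in libraries 2 and 3. TNNI1 was 1.55, 0.842, 0.860, 1.35 and 1.20 FPKM in SPA 1 to 5 and 1.66, 1.79, 2.10, 1.20 and 1.42 in SA 1 to 5. The ranges of SPA and SA overlapped for both genes, all of whose values were at or below 2.10 FPKM. TNNC2 was lower in SA, by a log2 fold change of -0.32 (SE 0.0720, adjusted p = 0.00289). TNNI1 was higher, by 0.29 (SE 0.109, adjusted p = 0.0431), and this call was lost without SA 1, SA 2, SA 3, SPA 2, SPA 3 or SPA 5, with adjusted p from 0.0632 to 0.105. The call was also lost with the replicate block (adjusted p = 0.0852), scaled to a fixed total (0.0730) and with single transcripts (0.129). With a mean of 0.1 FPKM (0.0542) or no filter (0.0822) it was lost as well. Over all settings tried, the adjusted p of TNNI1 in this comparison ran from 0.0180 to 0.129.

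The other 6 genes did not pass the test in the subcutaneous cells. TNNT3 stood at 7.55, 5.62, 6.40, 6.10 and 6.40 FPKM in SPA 1 to 5 and at 7.90, 6.96, 6.66, 7.64 and 5.51 in SA 1 to 5. These groups overlapped, and the log2 fold change was 0.09 with a 95% confidence interval from -0.10 to 0.29. Without SPA 1 and SA 5 it was 0.22, and TNNT3 then passed the test (adjusted p = 0.0200, range over settings 0.0200 to 0.777). TNNI3 was 3.61, 1.49, 3.10, 1.72 and 2.65 FPKM in SPA 1 to 5 and 1.52, 1.58, 2.29, 1.59 and 1.76 in SA 1 to 5, with a log2 fold change of -0.32 and an interval from -0.66 to 0.02. The SPA libraries of TNNI3 were spread on both sides of the SA range. Without SPA 2 its log2 fold change was -0.44 and passed the test (adjusted p = 0.0226, range over settings 0.0226 to 0.273). TNNI2 was 0.802, 1.03, 0.943, 0.665 and 0.960 FPKM in SPA 1 to 5 and 0.979, 0.876, 0.584, 0.930 and 0.393 in SA 1 to 5. Its groups overlapped widely, and the log2 fold change was -0.11 with an interval from -0.32 to 0.10.

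Of the 8 genes, 1 was thus higher and 1 lower in SA, where 26.1% of all genes tested were higher and 26.0% lower. None of the 8 separated the subcutaneous groups, where 19.8% of all genes were higher and 19.0% lower in SA without overlap. TNNC1, TNNC2, TNNT1, TNNT2 and TNNI2 had means under 1 FPKM in SPA and in SA and were tested because of their intramuscular levels, so nothing is read from these counts beside the shares over all genes. TNNT3, TNNI1 and TNNI3 were above that level in both subcutaneous groups, and of these 3 TNNI1 alone passed the test.

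SPA 1 carried traces of several genes that the other subcutaneous libraries nearly lacked. TNNC1 was 3.57 FPKM in SPA 1 and 0.131, 0, 0.101 and 0 in SPA 2 to 5, against 0.155, 0.261, 0.139, 0 and 0.653 in SA 1 to 5. TNNT1 was 1.09 FPKM in SPA 1 and 0.169, 0.353, 0 and 0.0188 in SPA 2 to 5, against 0.206, 0.266, 0.0880, 0.229 and 0.395 in SA 1 to 5. TNNT2 was 0.393 FPKM in SPA 1, 0.00844 in SPA 2 and 0 in SPA 3 to 5, and in SA 1 to 5 it was 0, 0, 0.123, 0.157 and 0.122. SPA 1 was the highest of the 10 subcutaneous libraries in each of these genes. For TNNC1 the log2 fold change of SA against SPA was -0.21 with SPA 1 (adjusted p = 0.658) and 0.21 without it (adjusted p = 0.158), and over all settings the adjusted p lay between 0.158 and 0.995. For TNNT1 it was -0.05 with SPA 1 (adjusted p = 0.831) and 0.13 without it (adjusted p = 0.267, range over settings 0.267 to 0.988). For TNNT2 it was 0.01 with SPA 1 (adjusted p = 0.933) and 0.11 without it (adjusted p = 0.0892, range over settings 0.0892 to 1).

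As a share of the IMPA mean, SPA 1 held 0.478% for TNNC1, 0.769% for TNNT1 and 0.270% for TNNT2. TNNC2 was at 0.599% in SPA 1 and between 0.209% and 0.507% in SPA 2 to 5, so its trace was not particular to SPA 1. Structural muscle genes were also present in SPA 1, and at lower shares in some SA libraries. MYL1, MYL2 and MYLPF, the light chains of sarcomeric myosin, stood at 0.852%, 0.759% and 0.605% of their IMPA means, and the sarcomeric actins ACTA1 and ACTC1 at 0.503% and 0.234%. In SA 5, MYL2 stood at 0.129%, MYL1 at 0.125%, ACTC1 at 0.0850% and MYLPF at 0.0821%, and in SA 2 MYL1 stood at 0.264% and ACTA1 at 0.140%. The muscle regulators were at widely different shares of their IMPA means in SPA 1. MYOD1 was listed at 0, MYOG stood at 0.0954% (0.0612% in SA 5) and PAX7 at 0.361%, and MYF5, MEF2C, MYF6, MEF2A and MEF2D lay between 1.79% and 76.9%. These last shares were not particular to SPA 1. MYF5 (0.358 FPKM), MEF2C (0.946) and MYF6 (0.503) were below the SPA maxima of 0.489, 1.10 and 0.551. MEF2A ranged from 9.93 to 10.9 FPKM in SPA, highest in SPA 1, and MEF2D from 1.81, in SPA 1, to 2.28. The fast fibre genes summed to 9.37 FPKM in SPA 1 and to 2.29, 2.25, 2.15 and 2.30 in SPA 2 to 5. In SA 1 to 5 the same sum was 2.17, 2.95, 2.23, 2.57 and 3.18 FPKM. TNNI3, TNNI2, TNNT3 and TNNI1 were at larger shares in SPA 1, with 60.4% of the IMPA mean for TNNI3, 7.11% for TNNI2, 6.19% for TNNT3 and 2.57% for TNNI1, and every other subcutaneous library also held more than 1% of the IMPA mean of each. Subcutaneous TNNT3, TNNI1, TNNI2 and TNNI3 were thus not in the proportions of the intramuscular libraries. The source of these traces was not tested.

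**Figure D2:**
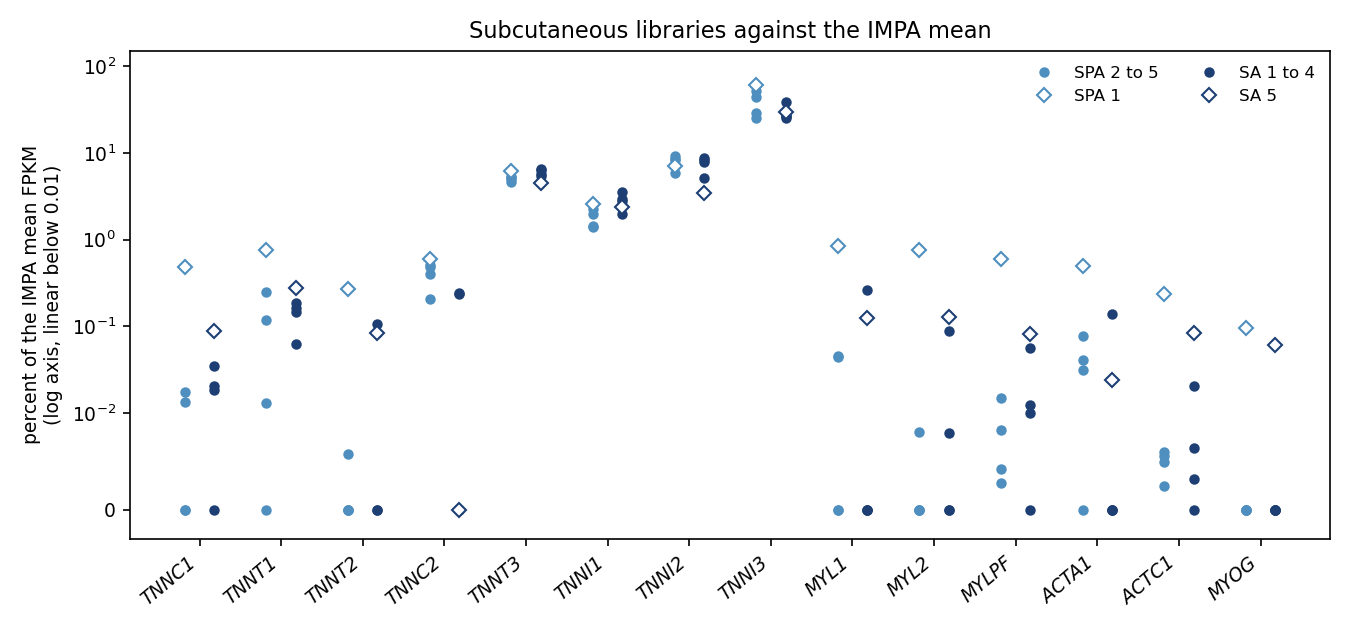
Points show the FPKM of the 8 troponin genes and of 6 other muscle genes in each subcutaneous library as a percent of the mean of the 5 IMPA libraries, on an axis that is logarithmic above 0.01 and linear below. Open diamonds mark SPA 1 and SA 5, and SPA 1 is the highest subcutaneous library for TNNC1, TNNT1, TNNT2 and the 6 other genes, all of them under 1% of IMPA.

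Whether the 2 depots responded differently was tested with an interaction term fitted to all 20 libraries. The intramuscular change was higher for 8 of 8 genes, where 20.7% of all genes tested had a higher and 34.6% a lower intramuscular change. For the 5 genes with subcutaneous means under 1 FPKM, TNNC1, TNNC2, TNNT1, TNNT2 and TNNI2, the subcutaneous change on this scale is held close to 0 and the difference largely repeats the intramuscular change, so nothing is read from this count. TNNT3, TNNI1 and TNNI3, with means above 1 FPKM in all 4 groups, passed the interaction test under every alternative run. The difference in log2 fold change was 3.56 for TNNI2 (SE 0.167, adjusted p = 1.72e-13) and 2.85 for TNNT3 (SE 0.106, adjusted p = 8.00e-15), the fast forms of troponin I and T. TNNT1 differed by 2.31, TNNC2 by 2.30, TNNC1 by 2.05, TNNI3 by 1.42, TNNT2 by 1.35 and TNNI1 by 1.18. TNNC1 had the widest interval, from 1.23 to 2.86 (SE 0.392, adjusted p = 0.000156), and its difference was 1.63 without SPA 1. With a pseudocount of 0.1 in place of 1, TNNC1 no longer passed (1.85, adjusted p = 0.108, range over settings 5.99e-12 to 0.108). TNNT2 also missed the threshold under this setting (1.12, adjusted p = 0.0601), and when its most abundant transcript alone was tested (1.70, adjusted p = 0.118, range over settings 1.30e-10 to 0.118). A difference in fold between the depots cannot be read from genes near 0 FPKM in the subcutaneous cells.

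**Figure D3:**
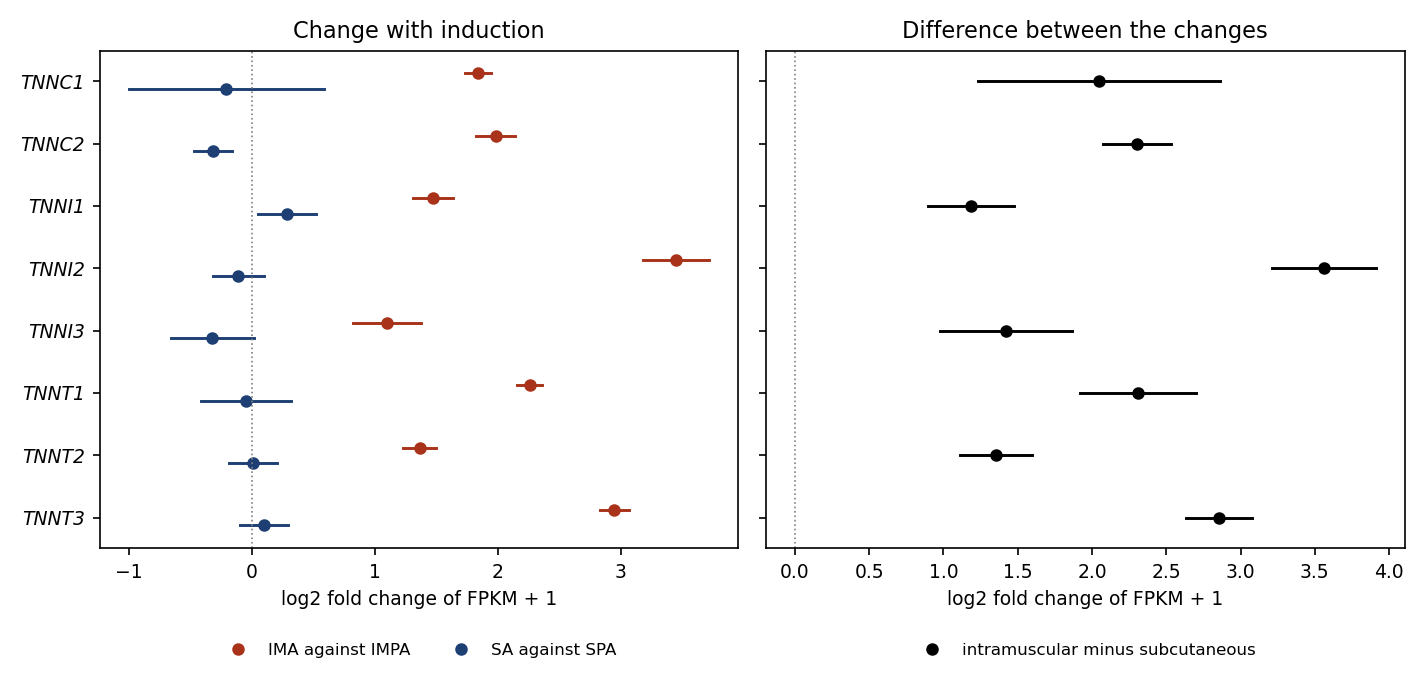
The left panel shows the log2 fold change of FPKM + 1 with its 95% confidence interval, red for IMA against IMPA and blue for SA against SPA, and the right panel the difference between these changes. The red points lie between 1.10 and 3.45 and the blue ones between -0.32 and 0.29.

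Within each subunit, the share of the fast gene was computed in every library. The fast gene TNNI2 held 15.5%, 13.8%, 13.4%, 18.1% and 12.3% of troponin I FPKM in IMPA 1 to 5 and 46.2%, 43.8%, 34.0%, 44.3% and 42.5% in IMA 1 to 5. Its share thus went from 14.6% ± 2.24 to 42.2% ± 4.75 (SD, n = 5) without overlap, with a two-sided exact permutation p = 0.00794 (adjusted p = 0.0129 over 13 share tests), the smallest that 5 libraries against 5 allow. The slow gene TNNI1 held 77.6% ± 2.51 in IMPA and 53.4% ± 5.42 in IMA, and the cardiac gene TNNI3 held 7.77% ± 1.34 and 4.44% ± 0.891. All 3 troponin I genes had risen, so the lower slow and cardiac shares came with higher levels.

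In troponin T, TNNT3 held 29.0%, 30.6%, 28.9%, 30.6% and 29.6% in IMPA 1 to 5 and 47.6%, 48.9%, 45.0%, 47.6% and 47.0% in IMA 1 to 5. The cardiac gene TNNT2 held 35.5%, 35.0%, 35.8%, 34.0% and 37.5% in IMPA 1 to 5 and 18.2%, 17.9%, 20.8%, 18.6% and 18.3% in IMA 1 to 5. Fast and cardiac shares thus moved in opposite directions, each without overlap, while the slow gene TNNT1 kept 34.7% ± 1.11 in IMPA and 34.0% ± 0.593 in IMA. The difference was 17.4 percentage points for the fast share (exact permutation p = 0.00794, adjusted p = 0.0129). For the cardiac share it was -16.8 points (exact permutation p = 0.00794, adjusted p = 0.0129). In troponin C the fast share moved little, from 9.26% ± 0.720 in IMPA to 10.2% ± 0.323 in IMA, and the ranges overlapped. That difference of 0.952 points had an exact permutation p = 0.0159 (adjusted p = 0.0229), which was 0.0556 when IMA 1, IMA 2 or IMA 4 was left out and ran from 0.00794 to 0.0625 over all settings.

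The 3 subunits also rose unequally. Troponin C summed to 822 ± 62.7 FPKM in IMPA and 2967 ± 78.9 in IMA, troponin T to 409.6 ± 29.9 and 2005 ± 63.1, and troponin I to 77.5 ± 5.57 and 317 ± 29.3 (SD, n = 5). The ratio of troponin C to troponin T was between 1.91 and 2.12 in the IMPA libraries and between 1.44 and 1.52 in the IMA libraries. Troponin T over troponin I was 5.29 ± 0.186 in IMPA and 6.36 ± 0.439 in IMA, also without overlap. Troponin C over troponin I was 10.6 ± 0.460 and 9.41 ± 0.697, with overlapping ranges. These ratios are of RNA per length and were not tested.

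**Figure D4:**
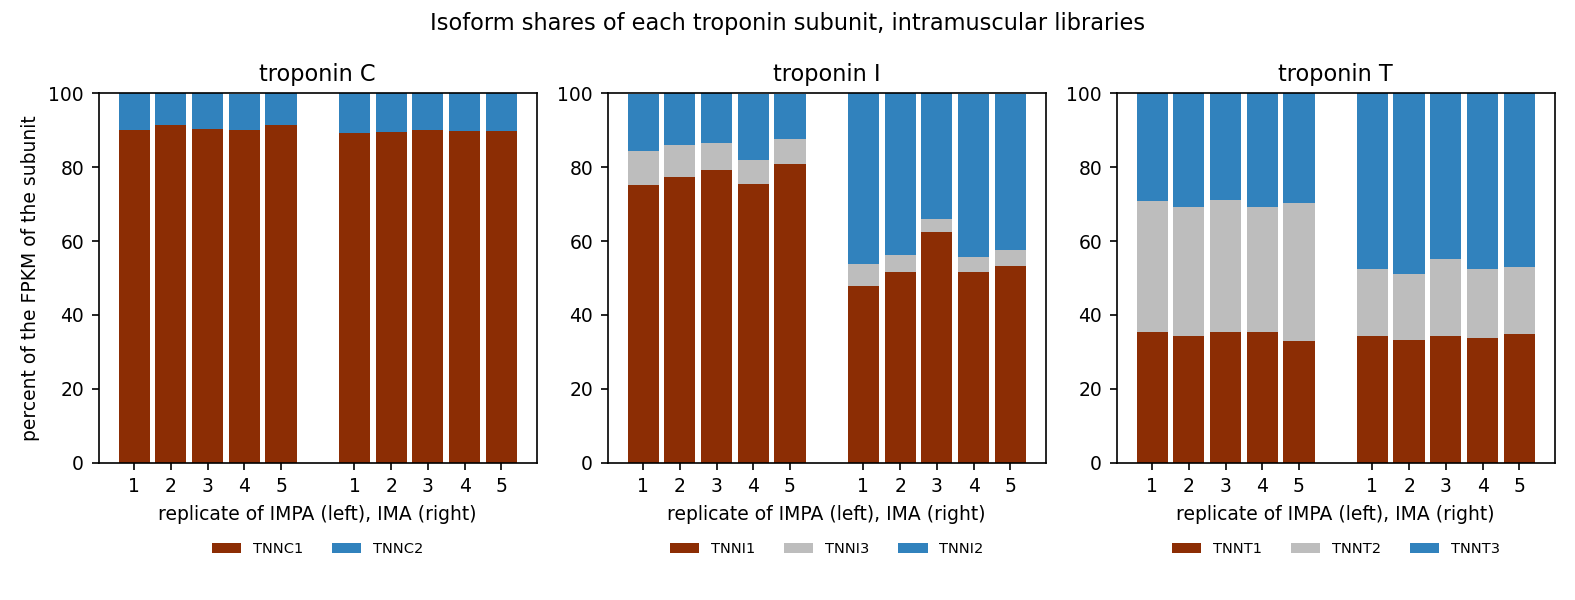
Stacked bars show the percent of the FPKM of troponin C, troponin I and troponin T that each gene holds in the 5 IMPA and the 5 IMA libraries. The fast part of troponin I goes from 14.6% to 42.2% on average and that of troponin T from 29.8% to 47.2%, while that of troponin C stays near 10%.

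Subcutaneous shares were taken from sums of a few FPKM. Troponin C had a sum under 1 FPKM in 9 of these 10 libraries and is not given as a share. In troponin I the cardiac gene TNNI3 held 53.8% ± 8.47 in SPA and 42.3% ± 5.56 in SA (SD, n = 5), the slow gene TNNI1 25.9% ± 6.67 and 39.3% ± 4.13, and the fast gene TNNI2 20.2% ± 6.35 and 18.4% ± 6.61. The fast share of troponin I differed by -1.82 points between SA and SPA (exact permutation p = 0.651), less than the SD of either group. Its direction turned without SPA 2 (0.788 points) or without SA 5 (0.0310 points). TNNT3 held nearly all troponin T, with 83.6%, 96.9%, 94.8%, 100% and 99.7% in SPA 1 to 5 and 97.5%, 96.3%, 96.9%, 95.2% and 91.4% in SA 1 to 5. SPA 1 was the lowest of these, and the groups overlapped (difference 0.473 points, exact permutation p = 0.937). Without SPA 1 this difference turned to -2.39 points (exact permutation p = 0.198). The cardiac share of troponin T was 4.36% in SPA 1, 0.146% in SPA 2 and 0 in SPA 3 to 5, and between 0 and 2.02% in SA (exact permutation p = 1).

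The depots were then compared at each stage with the same IMPA, IMA, SPA and SA libraries as above, so these values are not independent of the induction results. On log2(FPKM + 1), the difference of IMPA from SPA was 9.04 for TNNC1, 7.09 for TNNT2, 6.81 for TNNT1, 5.85 for TNNC2, 4.83 for TNNI1, 4.05 for TNNT3, 2.70 for TNNI2 and 1.02 for TNNI3. All 8 were higher in IMPA and without overlap, where 42.3% of all genes were higher, 32.9% lower and 35.9% higher without overlap. TNNI3 came closest, with a lowest IMPA library of 4.99 FPKM against a highest SPA library of 3.61. Without SPA 1 the difference for TNNC1 was 9.46. Between IMA and SA the difference was 11.09 for TNNC1, 9.11 for TNNT1, 8.45 for TNNT2, 8.15 for TNNC2, 6.91 for TNNT3, 6.26 for TNNI2, 6.01 for TNNI1 and 2.44 for TNNI3. All 8 were higher in IMA and without overlap, where 29.0% of all genes were higher, 43.4% lower and 23.9% higher without overlap. TNNC1, TNNC2, TNNT1, TNNT2 and TNNI2 reached the required mean of 1 FPKM through the intramuscular libraries alone, so they had to differ and nothing is read from these counts.

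For the 3 genes above that level in the subcutaneous cells, the depots differed as a ratio of means by 19.0 for TNNT3, 51.9 for TNNI1 and 2.38 for TNNI3 on day 0. After 3 days the ratios of IMA to SA were 137 for TNNT3, 103 for TNNI1 and 8.07 for TNNI3. The fast share of troponin T was lower in the intramuscular cells, by -65.2 points between IMPA and SPA and by -48.3 points between IMA and SA (exact permutation p = 0.00794 for both). The cardiac share of troponin T was higher there by 34.7 and 17.6 points (exact permutation p = 0.00794 for both). Both differences reflect TNNT1 and TNNT2 near 0 beside TNNT3 in the subcutaneous cells. The fast share of troponin I was 23.8 points higher in IMA than in SA (exact permutation p = 0.00794). Between IMPA and SPA it differed by -5.59 points (exact permutation p = 0.0794, adjusted p = 0.103). Without IMPA 4 it was -6.46 points (exact permutation p = 0.0476) and without SPA 1 it was -7.28 points (exact permutation p = 0.0238), both unadjusted, with p from 0.00794 to 0.25 over all settings. The lowest p came from a log2 ratio with 1 FPKM added to each part, while the shares of IMPA and SPA overlapped, so nothing is read from it.

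TNNT2 and TNNT1 had more than 1 transcript, and the other 6 genes had 1 each. The table held NM_001285572.1 for TNNC1, NM_001285668.1 for TNNC2, XM_018060884.1 for TNNI1, XM_018043469.1 for TNNI2, NM_001314239.1 for TNNI3 and NM_001314210.1 for TNNT3. For TNNT1, XM_018063109.1 held between 90.9% and 95.3% of the gene in the 10 intramuscular libraries. XM_018063111.1 held between 4.67% and 8.02%, and XM_018063110.1 was above 0 in IMPA 3 and IMA 3 alone. Both main TNNT1 transcripts were higher in IMA, and their proportions stayed in place.

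The 5 transcripts of TNNT2 did not keep their proportions between libraries. XM_018059926.1 was 18.9, 88.0, 16.6, 93.1 and 104 FPKM in IMPA 1 to 5 and 283, 46.3, 329, 327 and 75.9 in IMA 1 to 5. XM_018059925.1 was 42.3, 7.07, 52.0, 6.98 and 7.78 FPKM in IMPA 1 to 5 and 11.6, 135, 17.7, 9.53 and 97.6 in IMA 1 to 5. In IMPA 1, IMPA 3, IMA 2 and IMA 5 the first was low and the second high, and in the other 6 intramuscular libraries the reverse held. XM_018059923.1 was 33.3, 7.69, 35.9, 8.96 and 9.20 FPKM in IMPA 1 to 5 and 21.0, 82.8, 11.0, 16.2 and 88.4 in IMA 1 to 5, high in the same 4 libraries within each group. NM_001314190.1 was above 0 in these 4 alone, at 6.75, 5.71, 22.0 and 28.1 FPKM. XM_018059924.1, the remaining transcript, lay between 27.0 and 45.8 FPKM in IMPA and between 34.4 and 77.8 in IMA. These 4 libraries were noticed after their values were seen and include both stages.

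Tested singly, 8 of 13 troponin transcripts were higher in IMA than in IMPA, where 12.0% of 16706 mRNA transcripts were, and the 5 that did not pass were those of TNNT2. The most abundant of them, XM_018059926.1, had a log2 fold change of 1.70 with an adjusted p = 0.115, although the sum of TNNT2 separated the groups. Over all settings the adjusted p of TNNT2 in this comparison ran from 1.34e-11 to 0.115. With each gene represented by its most abundant transcript, the cardiac share of troponin T fell by 7.40 points (exact permutation p = 0.222, range over settings 0.00794 to 0.222). The statements on TNNT2 therefore rest on the gene sum. How reads were divided between its transcripts was not tested, since reads were not analysed here. In the subcutaneous libraries, XM_018063109.1 of TNNT1 and XM_018059923.1 of TNNT2 were the only transcripts of these genes above 0.

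**Figure D5:**
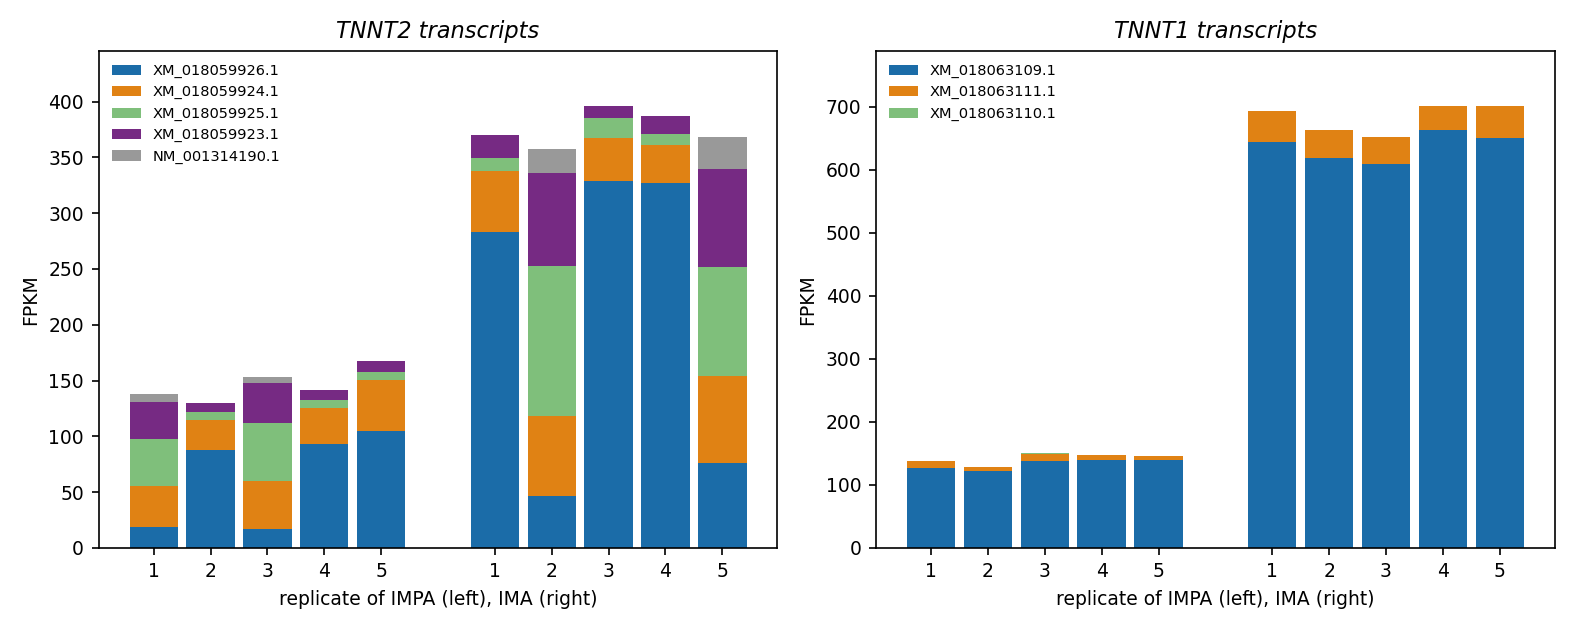
Stacked bars show the FPKM of the 5 TNNT2 transcripts (left) and the 3 TNNT1 transcripts (right) in each IMPA and IMA library. The TNNT2 sums separate IMPA from IMA although XM_018059926.1 ranges from 46.3 to 329 FPKM within IMA, while XM_018063109.1 makes up over 90% of TNNT1 throughout.

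The partners of troponin on the thin filament were followed as a list, as were the other gene groups below. The counts of these lists stand beside 19.9% of all genes higher and 40.2% lower in IMA against IMPA (median log2 fold change -0.09), 26.1% higher and 26.0% lower in SA against SPA (median -0.01), and 20.7% with a higher and 34.6% with a lower intramuscular change (median difference -0.08). Many listed muscle genes were under 1 FPKM in the subcutaneous cells, so for the muscle lists the genes with means of at least 1 FPKM in both SPA and SA are given beside the counts. Genes that reached the required mean of 1 FPKM only with the IMA libraries had to be high there, and they are named where a list holds any. None of the 8 troponin genes was among them. Of 11 genes for tropomyosins, sarcomeric actins, nebulin and the tropomodulins and leiomodins at the filament's end, 10 were higher in IMA than in IMPA and 1 was not called, with a median log2 fold change of 1.06. ACTC1, the cardiac actin and the most abundant of them in the intramuscular groups, went from a mean of 1444 to 2686 FPKM (log2 fold change 0.90), and ACTA1, the skeletal actin, from 204 to 671 (1.72). TPM2, a tropomyosin of skeletal muscle, had a log2 fold change of 0.65 and TPM1 one of 0.21. The gene not called was TPM4, a tropomyosin of non-muscle cells (-0.11, adjusted p = 0.0675). In SA against SPA, 0 of the 11 were higher and 4 lower, with a median of -0.15, and TMOD1, which caps the filament's pointed end, fell most, by a log2 fold change of -1.61 from 8.71 to 2.18 FPKM. The intramuscular change was higher for 9 of 11. Of the 7 with means of at least 1 FPKM in SPA and SA, 4 were lower in SA and the intramuscular change was higher for 5.

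Fibre-type partners rose in the intramuscular cells on the fast and on the slow side. Of 10 fast fibre genes, 7 were found and 5 tested, of which 4 were higher in IMA, with a median log2 fold change of 2.10. MYLPF, the fast regulatory light chain, went from 1061 to 4534 FPKM (2.10), and MYL1, the fast essential light chain, from 102 to 658 (2.68). ACTN3, an actinin of fast fibres, stood at 5.95 and 6.55 FPKM (0.12, adjusted p = 0.265). Of 10 slow fibre genes, 9 were found and tested, and 9 were higher in IMA, with a median of 1.75. MYL2, the slow and cardiac regulatory light chain, went from 1050 to 5420.5 FPKM (2.37). MYL3, the slow essential light chain, had the largest change of the list, from 0.599 to 30.6 FPKM (4.28), and MYH7B the smallest (0.45). MYL3, MYH7B and ANKRD2 reached the required mean only with the IMA libraries, so nothing is read from their calls, and the other 6 slow genes were all higher, with a median of 2.00. In SA against SPA, none of the 5 tested fast genes and 1 of the 9 slow genes, ATP2A2, passed the test, the latter lower (-0.25). ACTN3 alone of these 5 fast genes, and ATP2A2 and CASQ2 alone of the 9 slow genes, had means of at least 1 FPKM in both SPA and SA, so nothing is read from the other 4 and 7 in this comparison. The myosin heavy chains MYH1, MYH2, MYH3, MYH4 and MYH7 are not analysed here.

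Calcium handling genes, which set the calcium signal that troponin C reads, were higher in IMA for 14 of 14 listed, where 19.9% of all genes were. RYR1, CACNA1S, CACNG1, TRDN, SLN and PLN reached the required mean only with the IMA libraries, so nothing is read from their calls. The other 8 were all higher, with a median log2 fold change of 1.29 beside -0.09 for all genes. CASQ2, a calcium store protein of slow and cardiac muscle, was the most abundant of these in IMA and went from 41.9 to 203 FPKM (2.25). ATP2A2, a calcium pump, was the most abundant in the other 3 groups, with 59.7 FPKM in IMPA, 27.9 in SPA and 23.3 in SA, and stood at 106 in IMA. CASQ1, the fast counterpart of CASQ2, had the largest change (2.54) and RYR1, the calcium release channel, the smallest (0.50). In SA against SPA, 0 were higher and 2 were lower, JPH2 (-0.33) and ATP2A2, with a median of -0.01. The intramuscular change was higher for 14 of 14, where it was for 20.7% of all genes, but 10 of the 14 had a mean under 1 FPKM in SPA or SA and nothing is read from their part of the count. The other 4, CACNB1, JPH2, ATP2A2 and CASQ2, all had a higher intramuscular change. MYH8, a perinatal myosin, went from 3.96 to 48.1 FPKM in the intramuscular cells (3.33) and was under 0.1 FPKM in every subcutaneous library.

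Regulators of muscle formation changed in both directions. Of 10 listed, 8 were found and tested, with 5 higher and 1 lower in IMA and a median log2 fold change of 0.22. MEF2C, a transcription factor of differentiating muscle, rose most (2.43), followed by MYF6 (2.09), while MYOG changed by 0.18 (adjusted p = 0.0269). MYOD1, which commits cells to muscle, fell by 0.71 on the log2 scale, from 43.2 to 26.1 FPKM. PAX7, which marks muscle stem cells, stood at 12.3 and 13.3 FPKM (0.11, adjusted p = 0.384) in IMPA and IMA and at means of 0.0120 and 0.0111 in SPA and SA. In SA against SPA, 2 were higher and 1 lower, MEF2C (0.46), MEF2A (0.16) and MYF5 (-0.35). MEF2A and MEF2D were the regulators with means of at least 1 FPKM in both SPA and SA.

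Markers of cardiac and smooth muscle were followed because TNNC1, TNNT2 and TNNI3 also serve the heart. Of 10 cardiac genes, 9 were found and 1, GATA4, reached a mean of 1 FPKM (0.61 in IMA against IMPA, -0.20 and not called in SA against SPA). The cardiac list summed to 7.33, 7.11, 7.18, 6.90 and 7.72 FPKM in IMPA 1 to 5 and to 9.82, 9.81, 7.29, 9.27 and 9.02 in IMA 1 to 5. In SPA 1 to 5 that sum was 3.97, 4.65, 3.66, 4.13 and 3.38 FPKM and in SA 1 to 5 it was 3.53, 2.94, 4.17, 3.57 and 2.92. The most abundant gene of the list was GATA4, a transcription factor that other tissues also express, with means of 4.58 in IMPA, 7.56 in IMA, 3.44 in SPA and 2.89 FPKM in SA. RYR2, the cardiac calcium release channel, had means of 2.56 in IMPA and 1.27 in IMA and of 0.0187 in SPA and 0.0377 FPKM in SA, and was not tested. TBX5, HCN4 and MYBPC3 had means of at most 0.462 FPKM in the 4 groups. MYL7 and NKX2-5 were listed at 0 in all 10 intramuscular libraries, and NPPA and NPPB had group means of at most 0.0261 FPKM. MYL7, NKX2-5, NPPA and NPPB were thus at or near 0 in intramuscular libraries with TNNT2 over 100 FPKM, while GATA4 and RYR2 were above 1 FPKM there. Of 7 smooth muscle genes, 5 were tested, with 2 higher and 3 lower in IMA and a median of -0.22, and with 1 higher and 2 lower in SA. Of the 4 with means of at least 1 FPKM in SPA and SA, 1 was higher and 1 lower in SA. TAGLN, the most abundant, had a log2 fold change of -0.22 in the intramuscular and -0.05 in the subcutaneous cells, CNN1 had 0.27 and -0.06, and ACTA2 had -0.42 and 0.62.

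The adipocyte, stromal and housekeeping lists were counted in the same way. Of 11 adipocyte genes 3 were tested, with 1 higher and 1 lower in IMA. CD36, a fatty acid transporter also made by muscle, went from 0.252 to 4.91 FPKM (2.24) in the intramuscular and from 0.0679 to 0.934 (0.84) in the subcutaneous cells, but reached the required mean only with the IMA libraries. CEBPA fell by 0.68 and by 0.31 on the log2 scale. Of 9 stromal genes 7 were tested, with 1 higher and 2 lower in IMA (median -0.06) and 6 lower in SA (median -0.45). NT5E, a stromal surface enzyme, was the one that rose in IMA (0.13). DCN fell by 0.30 in the intramuscular and by 0.40 in the subcutaneous cells, and PDGFRA fell by 0.47 and by 0.81. Of 10 housekeeping genes, 1 was higher and 6 lower in IMA (median -0.22), and 3 were higher and 5 lower in SA (median -0.12). RPLP0, the most abundant of them, had log2 fold changes of -0.03 and 0.19. GAPDH, with the largest rise in IMA against IMPA, had 0.32 and -0.42, and ACTB, which fell most in both depots, had -0.52 and -0.58.

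For each troponin gene, the 3 genes with the most similar profile were found as the smallest root mean square difference between centred log2(FPKM + 1) values over the 20 libraries. The libraries fall into 4 groups, so likeness reflects the group means above all. Nearest to TNNC1 were MYLPF (0.32), ACTC1 (0.42) and MYL2 (0.44), and nearest to TNNC2 were CSRP3 (0.20), CKM (0.23) and LOC102181869 (0.26). TNNI1 was closest to MYOM3 (0.17), LMOD3 (0.21) and TTN (0.25). TNNI2 was closest to MYH8 (0.38), LOC102181181 (0.49) and S100A2 (0.49). TNNI3 stood nearest to CCDC28B (0.27), VWA5A (0.28) and ABLIM3 (0.28). TNNT1 stood nearest to MYL1 (0.19), ACTA1 (0.31) and LOC102181869 (0.37). For TNNT2 the nearest were PDLIM3 (0.19), KLHL41 (0.32) and LOC102181869 (0.35), and for TNNT3 FHL1 (0.17), MB (0.20) and MYBPC1 (0.21). MYLPF, MYL1, MYL2, ACTA1 and ACTC1 encode sarcomere proteins, CKM is the muscle creatine kinase and MB is myoglobin. Among the members, TNNT1 and TNNT2 were the most alike (0.36) and TNNC1 and TNNI3 the least (4.19).

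Troponin I and T genes lie side by side in vertebrate genomes, and the RefSeq gene table (build ARS1.2, all 8 genes and 14 transcripts matched) showed 3 such pairs in the goat. TNNI3 and TNNT1 are adjacent, TNNI1 and TNNT2 are separated by LAD1, and TNNT3 and TNNI2 are separated by LSP1. The partners in a pair differed in level in the intramuscular groups, as in IMA, where TNNI3 stood at 14.1 ± 3.00 and TNNT1 at 682 ± 23.0 FPKM (SD, n = 5). LAD1 went from 3.19 in IMPA to 6.25 FPKM in IMA (log2 fold change 0.79, adjusted p = 5.31e-07) and LSP1 from 77.9 to 99.3 (0.34, adjusted p = 0.0102), both less than their troponin neighbours. PPP1R12C, on the far side of TNNT1, fell by 0.63 on the log2 scale, from 8.55 to 5.18 FPKM. TNNC1, between NISCH (-0.04) and SEMA3G (0.05), and TNNC2, between UBE2C (-0.07) and SNX21 (-0.06), rose in IMA beside neighbours that did not pass the test between IMA and IMPA.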

How the data were processed

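The authors deposited FPKM per transcript, calculated with StringTie 1.3.1 and Ballgown from HISAT2 2.0.4 alignments to the goat genome. Nothing was realigned, and the lncRNA tables are not used here. FPKM was summed per gene and used as log2(FPKM + 1) without further scaling. Genes had to average 1 FPKM or more across the 20 libraries, which left 11433, all 8 troponin genes among them, and these were tested in limma 3.58.1 under R 4.3.3 with a variance trend. Groups were compared in fits of 10 libraries and the interaction over 20. Adjusted p values are from the Benjamini-Hochberg method over all genes tested, with a threshold of 0.05, and all tests are two-sided. Shares within a subunit were compared by exact permutation over 252 divisions, whose smallest p is 0.00794, and were left out where the subunit summed to under 1 FPKM in a library. Python 3.11.15 with numpy 2.4.6, pandas 2.3.3 and matplotlib 3.10.9 gave the descriptive values and plots. The steps were tested on simulated data.

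The genes named are the 8 members with their transcripts, the 3 most alike genes outside the family for each, and from each list the most abundant gene and those with the largest and smallest change, with MYLPF, MYL1, MYL2, MYL3, ACTA1, TPM1, TPM2, PAX7, MYOD1 and MYOG. MYH3 and MYH7 were also chosen but are not analysed here. Other genes singled out were chosen after their values were seen. The lists were thin filament partners, fast fibre, slow fibre, calcium release and uptake, myogenic regulators, developmental myosins, cardiac, smooth muscle, adipocyte, stromal preadipocyte and housekeeping. The members and lists were chosen with earlier results of these data known.

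Alternatives were a mean of 0.1 FPKM or no filter, a pseudocount of 0.1, upper-quartile scaling, scaling to a fixed total and no variance trend. Others were a joint fit of all 20 libraries, a block by replicate number, single transcripts, and leaving out each library or SPA 1 and SA 5 together. A share was also replaced by the log2 ratio of the gene to the rest of its subunit, with 1 FPKM added to each part.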

Additional observations from a re-analysis of the deposited data

Results flagged for a closer look

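Of 46 sets of 5 libraries examined, each a troponin gene or share in a group, 6 had a library far from the other 4. Some sets hold libraries at 0, and a share reuses the values of its genes, so this count is not set against chance. TNNC1 was 3.57 FPKM in SPA 1 against 0 to 0.131 in the other SPA libraries. TNNT2 was 0.393 FPKM in SPA 1 against 0 to 0.00844, and the cardiac share of troponin T there was 4.36% against 0 to 0.146%. TNNI2 was 13.9 FPKM in IMPA 4 against 10.2 to 11.0, and 93.3 FPKM in IMA 3 against 137 to 152. The cardiac share of troponin T was 20.8% in IMA 3 against 17.9% to 18.6%. The cause of these values was not tested.

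The log2 fold change with induction differed between the depots for all 8 genes, by the interaction test on log2(FPKM + 1). TNNC1, TNNC2, TNNT1, TNNT2 and TNNI2 had subcutaneous means under 1 FPKM, so a difference in fold cannot be read from them, and with a pseudocount of 0.1 TNNC1 (adjusted p = 0.108, range over settings 5.99e-12 to 0.108) and TNNT2 (adjusted p = 0.0601, range over settings 1.30e-10 to 0.118) missed the threshold. TNNI1, TNNI3 and TNNT3 passed under every alternative run. The intramuscular change was higher by 2.05 for TNNC1, 2.30 for TNNC2, 1.18 for TNNI1, 3.56 for TNNI2, 1.42 for TNNI3, 2.31 for TNNT1, 1.35 for TNNT2 and 2.85 for TNNT3.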

How the results depend on the processing

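The 8 troponin genes were higher in IMA than in IMPA in 18 of 19 alternatives and 7 were with single transcripts. Between the depots 8 were higher in all 20 alternatives. In the interaction 8 passed except for 6 with a pseudocount of 0.1 and 7 with single transcripts. Over all results of the tests, 353 values of counts and shares and 834 of single genes kept their direction and side of the threshold. Among the counts and shares 10 moved, 6 turned, 13 no longer passed and 3 newly passed, and among the single genes 13 turned, 15 no longer passed and 2 newly passed. Among the troponin genes 2 passed between SA and SPA, and 1 did with a mean of 0.1 FPKM, with no filter, scaled to a fixed total, with the replicate block and with single transcripts (1 to 2 when a library was left out), while 3 did without SPA 1 and SA 5. Scaled to a fixed total, 2473 genes were higher and 4233 lower in SA, in place of 2984 and 2975, with 12473 genes tested in place of 11433 because more reached the required mean. The cause was not tested.

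Several log2 fold changes of SA against SPA near 0 turned. TNNT1 was 0.20 with a pseudocount of 0.1, 0.0851 without SPA 1 and SA 5, and -0.14 to 0.13 when a library was left out. TNNC1 was 0.10 without SPA 1 and SA 5 and -0.34 to 0.21 when a library was left out. TNNT2 was 0 with single transcripts and -0.0149 to 0.106 when a library was left out. The cause was not tested.

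With the replicate block, the smallest exact permutation p of a share is 0.0625, so no share could pass. The block cannot move a difference, since the mean difference within replicate numbers equals the difference of the group means. The differences were 0.952 points for troponin C, and 27.5 and 23.8 for the fast share of troponin I (IMA against IMPA, IMA against SA). For the fast share of troponin T they were 17.4, -65.2 and -48.3 (IMA against IMPA, IMPA against SPA, IMA against SA). For its cardiac share they were -16.8, 34.7 and 17.6 in the same comparisons. Same-numbered libraries were hardly alike in their deviations from the group mean, with correlations across genes, which are not independent replicates, from 0.0417 to 0.121 between IMA and IMPA and from -0.242 to 0.122 between SA and SPA.

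When a library was left out, the difference in the fast share of troponin C was 0.743 to 1.13 points, that of troponin I -3.51 to 0.788 between SA and SPA and -7.28 to -2.99 between IMPA and SPA, and that of troponin T -2.39 to 1.72 between SA and SPA. As a log2 ratio with 1 FPKM added to each part, the fast part of troponin I differed by -1.17 between IMPA and SPA (exact permutation p = 0.00794). The added 1 FPKM is above the SPA mean of TNNI2 (0.880 FPKM), and the shares of IMPA and SPA overlapped, so nothing is read from this ratio. The cardiac part of troponin T differed by -0.0715 between SA and SPA as such a ratio. With the most abundant transcript, the cardiac share of troponin T differed by -7.40 points between IMA and IMPA and by 0 between SA and SPA. The cause was not tested.

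With 5 libraries a group, replicate numbers not tied to goats and no counts, differences between goats could not be assessed. The precision of values under about 1 FPKM was not assessed either. The mapped share and the GC content of the reads, both higher in IMPA than elsewhere, cannot be told apart from that group, and protein was not measured here.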
